A study of Mus musculus with 6 samples.

Results

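Antigen presentation in mouse lung is described here through 9 genes, namely the class I genes H2-K1, H2-D1 and B2m and the class II genes Cd74, H2-Aa, H2-Ab1, H2-Eb1, H2-DMa and Ciita. They were chosen by symbol, and all 9 were present in each of the 6 single-cell count tables, of 42625 gene rows in any table and 20490 shared by all 6. Each library was made from 3 pooled mice and each condition had 1 library, so no test between conditions was possible and no difference between conditions has a replicate check.

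The mice were adult males of the Pdgfra-GFP reporter line, in which cells that express the growth factor receptor gene Pdgfra, mainly fibroblasts (FBs), make a nuclear green protein and were sorted by FACS. In the single-dose experiment, GFP+ cells were taken from lungs 14 days after 1 oropharyngeal dose of 50 µl PBS or of bleomycin, a drug that damages DNA and scars the lung. The labels give that bleomycin dose as 2 U/kg in one field and 4 U/kg in another. In the repetitive experiment, mice received 3 weekly doses of PBS or of bleomycin (1 U/kg at each of the earlier doses and 0.5 U/kg at the last), and GFP+ cells were sorted 14 days after the last dose. In the organoid experiment, Tomato+ type 2 alveolar epithelial cells (AEC2s) came from tamoxifen-induced SpcCreER mice that also carried a Rosa tdTomato reporter. The inducible Cre of these mice is driven by the promoter of the surfactant protein gene Sftpc. Per the labels the AEC2s were mixed 10 to 1 with GFP+ FBs, whereas the study's methods give the FBs in excess. The FBs came from mice given PBS (normal FBs) or bleomycin at 2 U/kg (fibrogenic FBs), and the mixtures were grown in Matrigel for 2 weeks.

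Class I molecules stand on the surface of almost all nucleated cells and display peptides from the cell interior to CD8 T cells. H2-K1 and H2-D1 encode classical heavy chains, and B2m encodes the light chain that both need to reach the surface. Class II molecules are typical of B cells, macrophages and dendritic cells and display peptides from endocytosed protein to CD4 T cells, and AEC2s are among the epithelial cells known to make them without inflammation. H2-Aa and H2-Ab1 encode the chains of the I-A dimer and H2-Eb1 the beta chain of I-E, Cd74 is the invariant chain that escorts the dimers, H2-DMa is part of the H2-DM complex that loads peptide, and Ciita is the coactivator that switches class II genes on.

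In GRCm38.p6 with GENCODE M21, 6 of the 9 genes lie in the MHC on chromosome 17. H2-DMa lies at 34119541 to 34139101, H2-Ab1 at 34257689 to 34269419, H2-Eb1 at 34305867 to 34316674 and H2-D1 at 35262730 to 35267499, all on the plus strand, and H2-K1 at 33996017 to 34000347 and H2-Aa at 34282744 to 34287823 on the minus strand. B2m is on chromosome 2 at 122147686 to 122153083 and Ciita on chromosome 16 at 10480059 to 10528418, both on the plus strand. The libraries count the 3′ ends of transcripts. Of the 90-base windows in the last 500 bases of the H2-K1 transcripts, 2.31% also occurred in other genes, 6 in all, with H2-Q10, H2-Q5 and H2-Q7 among them. The share was 8.93% for H2-D1, with 11 other genes, and 0.0% for each of the other 7 members. The H2-K1 and H2-D1 counts are therefore uncertain to the extent that such reads were dropped or split.

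Class II promoters are known for a conserved module, in which an X box bound by the RFX factors is followed by a Y box bound by NF-Y, and Ciita acts through the proteins bound there. Class I promoters carry in addition kappa-B and interferon-response elements. The 180 bases before the RefSeq start are shown for a class II alpha gene, a class II beta gene, a class I heavy chain and B2m, 5′ to 3′ on the strand of the gene. Capitals mark matches to the searched letters, the X1 core only where the Y box follows it. The letters were CTGATTGG for the Y box, GCAAC for the core of the X1 box, CCAAT for the CCAAT box, which lies within the Y box, GGGATTCCC for a kappa-B site and, for an interferon-response element, GAAA and again GAAA after 2 further bases, each on both strands.
H2-Aa, chr17:34287824-34288003, minus strand: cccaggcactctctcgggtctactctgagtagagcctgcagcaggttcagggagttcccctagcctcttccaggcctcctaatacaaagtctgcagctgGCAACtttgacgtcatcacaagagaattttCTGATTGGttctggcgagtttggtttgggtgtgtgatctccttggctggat
H2-Eb1, chr17:34305687-34305866, plus strand: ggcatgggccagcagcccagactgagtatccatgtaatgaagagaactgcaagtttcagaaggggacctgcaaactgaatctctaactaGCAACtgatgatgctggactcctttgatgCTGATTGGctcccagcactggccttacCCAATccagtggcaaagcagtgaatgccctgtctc
H2-K1, chr17:34000348-34000527, minus strand: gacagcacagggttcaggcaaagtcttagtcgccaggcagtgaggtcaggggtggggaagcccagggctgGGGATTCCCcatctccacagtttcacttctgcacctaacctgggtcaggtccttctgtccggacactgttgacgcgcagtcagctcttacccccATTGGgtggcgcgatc
B2m, chr2:122147507-122147686, plus strand: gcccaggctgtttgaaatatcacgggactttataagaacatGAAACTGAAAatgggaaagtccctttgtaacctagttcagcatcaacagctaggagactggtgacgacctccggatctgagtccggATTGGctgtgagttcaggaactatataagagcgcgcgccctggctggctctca

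H2-Aa and H2-Eb1 each held the X1 core followed by the Y box on the strand of the gene, with 30 and 29 bases between the starts of the matches. Of 32851 RefSeq windows of 250 bases before a start, from 27025 genes, 0.122% held that pair within 40 bases. The Y box alone was found in 3.83%, the X1 core in 29.9%, the CCAAT box in 33.8%, the kappa-B letters in 0.301% and the interferon-response letters in 2.98%. These matches describe letters and were not tested as binding sites. Entries existed for 6 of the 9 members. Of the pair not shown, the class II gene H2-DMa held the X1 core but none of the other searched letters, and the class I gene H2-D1 held the X1 core, the Y box letters, CCAAT boxes and the kappa-B letters, without the pair.

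The libraries held 7201081 and 11869967 UMIs (unique transcript molecules) in the single-dose experiment, 64697147 and 68354458 in the repetitive one and 211680702 and 238618743 in the organoids, control first. After cells rich in mitochondrial or haemoglobin UMIs were removed, 929 to 9906 barcodes per library remained, and 0 to 30 barcode sequences were shared between any pair of libraries. No doublet caller was run. Cells were gated by marker genes that did not include the 9 members, and levels are UMI counts summed over a gate and scaled to CPM (counts per 1000000 counts of all genes). Intervals of levels are exact 95% counting intervals. Those of log2 ratios have the width of the exact interval of the count ratio, placed around the ratio with 1 CPM added. Those of thinned shares are exact for the expected count rounded to a whole number. The limit given for a count of 0 is the level that 3 UMIs would have. These intervals and this limit cover counting error only. The single-dose tables hold 30830 and 30828 gene rows and the others 32285 each, and ratios were taken only within an experiment.

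Alveolar organoids let AEC2s be compared with the cells that differentiate from them, and 2033 epithelial barcodes were gated with normal FBs and 2382 with fibrogenic FBs. Of these, 1107 and 906 were AEC2-gated, 265 and 482 transitional-gated, that is, high in Cldn4, Krt8 and other genes of the intermediate state between AEC2s and type 1 cells (AEC1s), and 252 and 332 AEC1-gated. The remaining 409 and 662 epithelial barcodes passed no subclass gate. Sftpc stood at 86343 and 87190 CPM in the AEC2 gates, Cldn4 at 773 and 993 CPM in the transitional gates, and Ager at 4774 CPM in the AEC1 gate with normal FBs, as the gates require.

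All 6 class II genes were lower in transitional cells than in AEC2s, in organoids with normal and with fibrogenic FBs, by between 3.36-fold and 6.79-fold. The class I heavy chains differed far less, and B2m was higher in transitional cells. Cd74 stood at 2929.6 CPM in AEC2s and 872 CPM in transitional cells with normal FBs, and at 3618 and 974 CPM with fibrogenic FBs. The gene lies outside the MHC, on the plus strand of chromosome 18 at 60803848 to 60812652. Its log2 ratio of transitional over AEC2 was -1.75 (95% counting interval from -1.78 to -1.72) and -1.89.

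For the I-A chains the gap was wider than for Cd74. H2-Aa stood at 483 and 92.3 CPM with normal FBs and at 667 and 103 CPM with fibrogenic FBs, log2 ratios of -2.38 and -2.68. H2-Ab1 stood at 510 and 126 CPM with normal FBs and at 706 and 137 CPM with fibrogenic FBs, log2 ratios of -2.0 and -2.36. The chains that pair to form I-A thus differed in the same direction and by similar factors, 5.23-fold and 4.04-fold with normal FBs and 6.47-fold and 5.15-fold with fibrogenic FBs.

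H2-Eb1, the I-E beta chain, stood at 262 CPM in AEC2s and 66.9 CPM in transitional cells with normal FBs, and at 373 and 78.1 CPM with fibrogenic FBs. H2-DMa of the peptide loading complex stood at 98.1 and 22.3 CPM, and at 117 and 19.4 CPM. These correspond to differences of 3.92-fold and 4.78-fold for H2-Eb1 and of 4.39-fold and 6.01-fold for H2-DMa. Ciita, the coactivator on which the others depend, was detected at 18.5 CPM (957 UMIs) in AEC2s and 2.96 CPM (30 UMIs) in transitional cells with normal FBs. With fibrogenic FBs it stood at 26.0 and 3.82 CPM. Its log2 ratios were -2.29 (from -2.87 to -1.77) and -2.48 (from -2.93 to -2.07), so the coactivator was lower in the same cells as the genes it controls.

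The class I genes did not move as a group. H2-K1 stood at 426 CPM in AEC2s and 374 CPM in transitional cells with normal FBs, and at 435 and 380 CPM with fibrogenic FBs, log2 ratios of -0.19 and -0.20. H2-D1 stood at 475 and 339 CPM, and at 436 and 372 CPM, log2 ratios of -0.49 and -0.23. The light chain gene went the other way from the heavy chains. B2m stood at 96.1 CPM in AEC2s and 231 CPM in transitional cells with normal FBs (log2 1.26, from 1.19 to 1.33), and at 102 and 230.1 CPM with fibrogenic FBs (log2 1.16, from 1.09 to 1.23).

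At a 2-fold difference, 6 of 6 class II genes were lower in transitional cells, against 8.61% of all 14947 genes with enough UMIs in organoids with normal FBs and 9.59% of 14595 with fibrogenic FBs. B2m alone among the 3 class I genes was at least 2-fold higher, against 14.5% and 14.0% of all genes. The class II median log2 ratio was -2.05 with normal and -2.42 with fibrogenic FBs, the class I median was -0.19 and -0.20, and the median over all genes was 0.18 and 0.16.

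**Figure D1:**
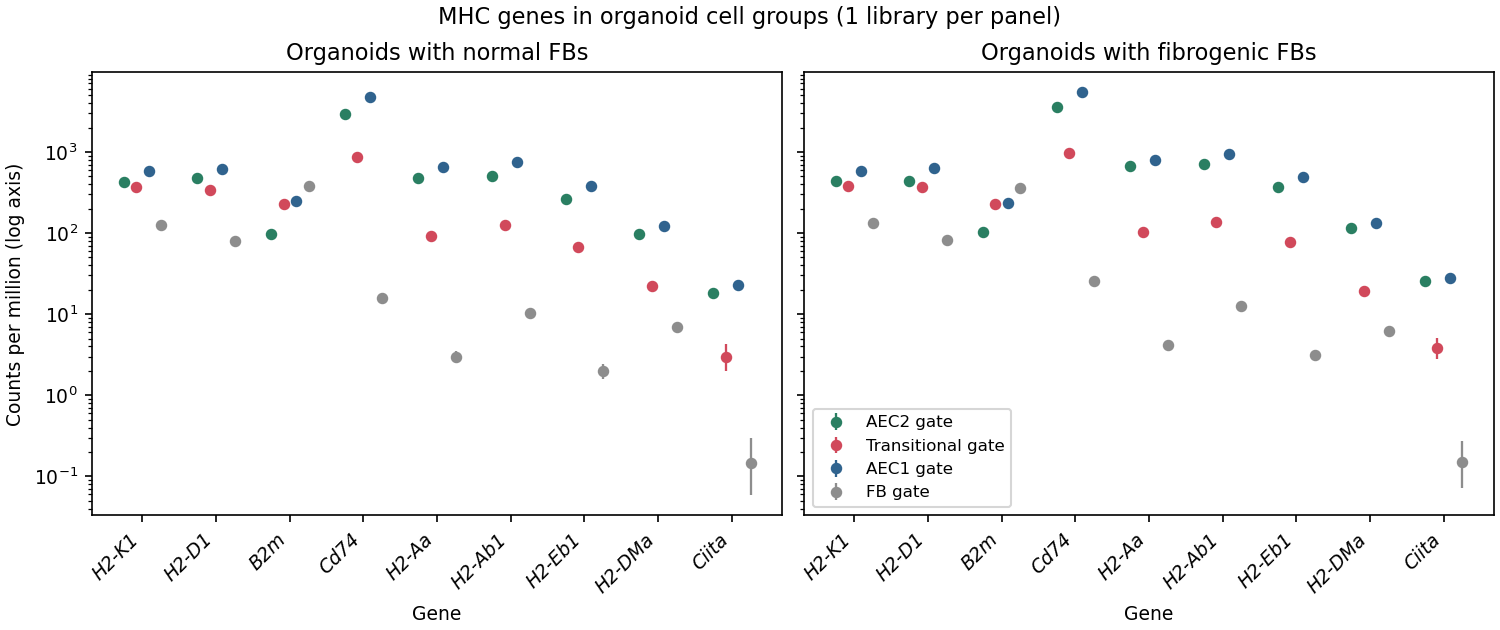
Levels of the 9 members in CPM (log axis) in the AEC2, transitional, AEC1 and FB gates of organoids grown with normal FBs (left) and fibrogenic FBs (right), 1 library each, with exact 95% counting intervals. The 6 class II genes are lowest among the epithelial gates in transitional cells, while H2-K1 and H2-D1 stay within 339 to 628 CPM in the 3 epithelial gates.

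AEC1-gated cells held class II levels above those of transitional cells. Cd74 stood at 4783 CPM in AEC1s with normal FBs and 5424 CPM with fibrogenic FBs, and H2-Aa at 658 and 799 CPM. Ciita stood at 22.7 and 28.1 CPM. The log2 ratio of AEC1 over transitional cells was 2.45 and 2.48 for Cd74, 2.82 and 2.94 for H2-Aa, 2.57 and 2.79 for H2-Ab1, 2.50 and 2.65 for H2-Eb1, 2.41 and 2.73 for H2-DMa and 2.58 and 2.59 for Ciita. All 6 were at least 2-fold higher, against 7.75% and 6.78% of all genes.

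Transitional cells were thus the low point for class II among the 3 epithelial gates. They were also the low point for Sftpc, at 9434 and 7125 CPM against 31881 and 32464 CPM in the AEC1 gates. In the AEC2 gates Sftpc stood at 86343 and 87190 CPM. Summed class II stood at 6726 CPM in AEC1s and 4302 CPM in AEC2s with normal FBs. With fibrogenic FBs it stood at 7836 and 5507 CPM. The part of AEC2 RNA in the class II levels of AEC1-gated barcodes was not tested. The class I heavy chains were modestly higher in AEC1s than in transitional cells, with log2 ratios of 0.65 and 0.60 for H2-K1 and 0.88 and 0.75 for H2-D1, and B2m was at 246 and 234 CPM in AEC1s (log2 0.09 and 0.02).

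The pattern was also seen per barcode. The class II sum had a median of 4163 CPM in single AEC2s with normal FBs, with a 10th percentile of 2424 and a 90th of 6510. In transitional cells the median was 363 CPM, the 10th percentile 0 and the 90th 3571. With fibrogenic FBs the medians were 5093 and 269.7 CPM. The ranges overlapped, since the 90th percentile of transitional barcodes lay above the 10th percentile of AEC2s.

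In absolute CPM, AEC1-gated barcodes were the most spread, with medians of 6411 and 6389 CPM. Their 10th percentile was 2257 CPM with normal FBs and 622 CPM with fibrogenic FBs. Relative to the median, transitional barcodes were more spread. With normal FBs their quartiles were 90 and 1277 CPM around 363 CPM, against 3726 and 8887 CPM in AEC1s.

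Depth differed between the gates, with median UMIs per barcode of 43917 in AEC2s and 37413 in transitional cells with normal FBs, and 38603 and 11727 with fibrogenic FBs. The share of barcodes with a UMI was therefore also taken after thinning to 5000 UMIs, which leaves out shallower barcodes and kept 1023 of 1107 AEC2s and 214 of 265 transitional cells with normal FBs, and 693 of 906 and 268 of 482 with fibrogenic FBs. For H2-Aa it was 86.5% in AEC2s and 20.5% in transitional cells with normal FBs (96.0% and 35.1% unthinned), and 92.2% and 17.6% with fibrogenic FBs (90% and 23.4% unthinned). B2m went the other way, at 34.7% in AEC2s and 62% in transitional cells with normal FBs (86.2% and 84.2% unthinned).

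FBs do not normally make class II, and the share of FB-gated barcodes with a UMI is given as a comparator. It includes 13 and 22 FB-gated barcodes with at least 10 class II UMIs, which held 21.1% and 30.5% of the class II UMIs of their gates and Sftpc at 3571 and 4079.5 CPM. At 5000 UMIs, a UMI of Cd74 was found in 6.03% and 8.14% of the 812 and 965 FB-gated barcodes deep enough, against 71.2% and 67.4% of transitional cells and 99.9% and 100% of AEC2s. Unthinned, the FB share was 42.1% in both libraries, at median depths of 51033 and 38506 UMIs.

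All epithelial barcodes were also ordered by transitional over AEC2 marker level, in 5 bins of equal size. Cd74 stood at 3023, 2961, 2916 and 3175 CPM in the first 4 bins with normal FBs and at 2001 CPM in the last. With fibrogenic FBs it stood at 3793, 3545, 3642 and 4358 CPM and then at 852 CPM. Class II was thus about level over the first 4 bins and lower only in the last. AEC1s, which held more class II than AEC2s, are spread over these bins. The order therefore does not place the drop between AEC2s and transitional cells.

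B2m was higher already in the bin before the last. It stood at 109, 96.3, 106, 147 and 252 CPM with normal FBs and at 107, 109, 122, 214 and 245 CPM with fibrogenic FBs. AEC1s are part of this order, and the AEC1 marker gene Ager was highest in the last bin with normal FBs (2120.5 CPM) and in the one before it with fibrogenic FBs (2773 CPM). AEC1-gated cells held B2m at 246 and 234 CPM, and their part in the B2m levels of these bins was not tested. The ratio that sets the gates lay between 1.2 and 1.8, near the limit of 1.5, in 273 (13.4%) and 362 (15.2%) of the epithelial barcodes.

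**Figure D2:**
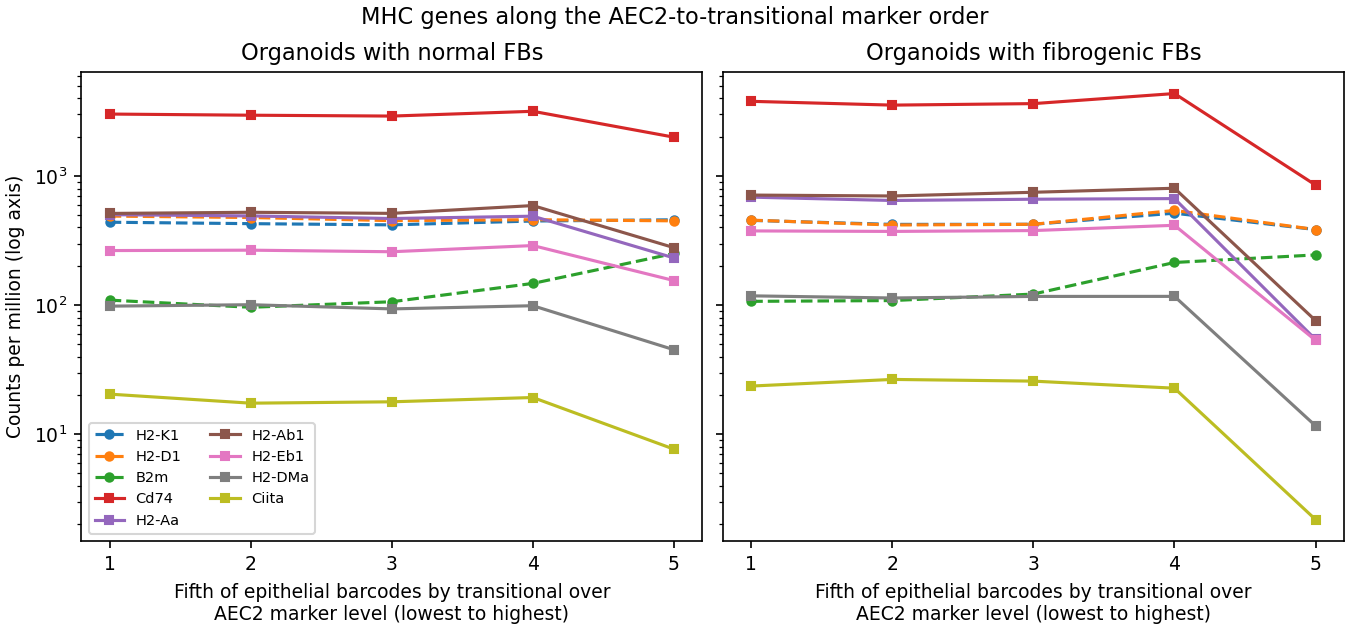
Level of the 9 members in CPM (log axis) in 5 equal bins of the epithelial barcodes of each organoid library, ordered from low to high transitional over AEC2 marker level. The class II genes are level over the first 4 bins and lower in the last, where Cd74 is at 2001 CPM with normal and 852 CPM with fibrogenic FBs, while B2m reaches 252 and 245 CPM there.

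RNA of other cells was measured in the same gates. The summed FB markers stood at 178 and 159 CPM in AEC2s and at 321 and 459 CPM in transitional cells, and those of macrophages and monocytes at 7.5 and 7.72 CPM and at 7.21 and 14.7 CPM. B cell markers summed to 16 and 9.01 CPM in AEC2s and to 2.47 and 2.1 CPM in transitional cells. Dendritic cell markers summed to 2.45 and 2.0 CPM and to 9.98 and 8.5 CPM, with Cd209a at 0 in all 4 gates. T cell markers summed to 0.848 and 0.657 CPM in AEC2s and to 21.3 and 13.5 CPM in transitional cells. Endothelial markers summed to 26.7 and 30.6 CPM and to 6.23 and 6.94 CPM. Neutrophil markers summed to 5.48 and 3.53 CPM and to 0.296 and 0.468 CPM. Plasma cell markers summed to 0.656 and 1.06 CPM and to 0.494 and 0.858 CPM. Among barcodes with no UMI of the immune and endothelial markers (212 AEC2s and 125 transitional cells with normal FBs, 314 and 290 with fibrogenic FBs), the class II median log2 ratio was -2.54 and -3.66. In those barcodes the log2 ratio of H2-Aa was -3.39 and -4.14, and that of B2m 1.00 and 0.90. The choice left FB markers in and was not matched for depth. With clusters in place of gates the class II median over all barcodes was -2.63 and -3.22.

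Other genes of antigen presentation did not follow the class II members as lists. Of 14 class I pathway genes, none was at least 2-fold higher in transitional cells, against 14.5% and 14.0% of all genes. At least 2-fold lower was 1 of 14, near the 8.61% and 9.59% of all genes. It was Psmb9, an immunoproteasome subunit (log2 -1.33 and -1.03). The highest was Tapbp, which bridges class I and the peptide transporter (0.74 and 0.55), and the list median was 0.31 and 0.18.

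The class II pathway list, with medians of 0.24 and 0.23, ran in both directions. H2-DMb1, the partner of H2-DMa, and its near copy H2-DMb2 were lower in both libraries, like the class II members. H2-DMb1 was at -1.70 and -1.90, the lowest with normal FBs. H2-DMb2 was at -0.70 and -2.16, the lowest with fibrogenic FBs. The costimulatory receptor Cd40 was highest (3.68 and 2.63). Ifi30, a lysosomal thiol reductase, was at 243 and 83.4 CPM and at 235 and 86.2 CPM. Among other class I genes, the lipid-presenting Cd1d1 was highest (1.77 and 1.61) and the nonclassical H2-Q7 lowest (-1.85 and -1.68), with medians of -0.32 and -0.18.

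Interferon-gamma is the best known inducer of Ciita. Of 13 and 12 tested genes of its axis, none was at least 2-fold lower, against 8.61% and 9.59% of all genes, and 5 and 3 were at least 2-fold higher, against 14.5% and 14.0%. The median was 0.69 and 0.66. The range ran from Igtp (-0.13 and -0.00) to the chemokine gene Cxcl10 (4.93 and 3.93). No Ifng UMI was counted in either gate of either library. Type I interferon response genes had medians of 1.34 and 0.92, with 9 and 5 of 14 at least 2-fold higher, again against 14.5% and 14.0% of all genes. Usp18, a negative regulator of that response, was the highest (2.84 and 2.76) and Stat2 the lowest (-0.06 and -0.40).

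Fibrogenic FB support was compared with normal FB support over all organoid epithelium. Class II genes stood slightly higher with fibrogenic FBs, with log2 ratios of 0.17 for Cd74, 0.28 for H2-Aa, 0.30 for H2-Ab1, 0.34 for H2-Eb1, 0.09 for H2-DMa and 0.27 for Ciita, and a median of 0.28 against 0.04 over all genes. For class I the ratios were -0.00 for H2-K1, -0.09 for H2-D1 and 0.20 for B2m. No member differed by 2-fold in either direction, against 0.218% of all genes higher and 0.142% lower.

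The difference was largest in the AEC2 gate. Cd74 was 1.24-fold, H2-Aa and H2-Ab1 1.38-fold, H2-Eb1 1.42-fold, H2-DMa 1.19-fold and Ciita 1.41-fold higher with fibrogenic FBs. In transitional cells the class II median log2 ratio was 0.16 and in AEC1s 0.29. Among the 575 and 1215 epithelial barcodes with no UMI of the immune and endothelial markers the class II median was 0.011. FB markers were not part of that choice, and it was not matched for depth. Within AEC2s of that kind (212 and 314 barcodes) the levels still differed, with Cd74 at 2997 and 3677 CPM, H2-Aa at 485 and 669.7 CPM and H2-Ab1 at 544 and 734 CPM. With 1 library for each kind of support, the FBs and the library cannot be told apart.

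FBs in the organoids held little class II. Cd74 stood at 15.7 CPM in FBs of normal origin and 25.4 CPM in FBs of fibrogenic origin, and Ciita at 0.145 and 0.15 CPM (7 and 10 UMIs). H2-K1 stood at 125 and 133 CPM, H2-D1 at 80.4 and 82.2 CPM and B2m at 377 and 364 CPM. Relative to the epithelium of the same organoids, these FBs thus held less of the heavy chains and more of the light chain.

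In lung FBs after a single dose, class I genes differed little between bleomycin and PBS, and 5 of 6 class II genes were lower by about 2-fold or less, in a direction that did not hold under all ways of choosing FBs. The gate held 883 barcodes after PBS and 808 after bleomycin. H2-K1 stood at 284 CPM after PBS and 330 CPM after bleomycin (log2 0.22, from 0.13 to 0.30), H2-D1 at 671 and 636 CPM (-0.08) and B2m at 2713 and 3248 CPM (0.26).

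Cd74 stood at 309 and 163 CPM (log2 -0.92, from -1.01 to -0.82). The I-A and I-E chains had ratios close to it, with H2-Aa at 146 and 84.1 CPM (-0.79), H2-Ab1 at 129 and 79.1 CPM (-0.70) and H2-Eb1 at 109 and 65.2 CPM (-0.74). H2-DMa stood at 17.6 and 8.74 CPM (-0.93, and 2.01-fold lower on the CPM themselves), and Ciita at 2.11 and 2.14 CPM on 13 and 22 UMIs (0.01). With 1 CPM added to both sides, as in all log2 ratios and 2-fold counts here, no member differed by 2-fold, against 8.47% of all genes higher and 3.65% lower after bleomycin. The class I median was 0.22, the class II median -0.77 and the median over all genes 0.08. With clusters named by their highest marker level in place of the gates, both medians changed sign, to -0.099 and 0.79. That naming left 439 and 522 barcodes as FBs. It called clusters with 235 and 154 PBS barcodes neutrophils and plasma cells, and clusters with 182 and 153 bleomycin barcodes mesothelial and smooth muscle. With clusters named by most of their gated barcodes (929 and 845 FBs) the medians were 0.21 and -1.14.

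After repetitive dosing the class II genes stood higher after bleomycin, whereas the single-dose direction depended on how FBs were chosen. The gate held 5247 barcodes after PBS and 8719 after bleomycin. Cd74 stood at 18.0 CPM after PBS and 142 CPM after bleomycin, 7.87-fold higher (log2 2.91, from 2.82 to 3.00). H2-Aa stood at 5.55 and 48.7 CPM (8.77-fold), H2-Ab1 at 7.07 and 58.1 CPM (8.22-fold) and H2-Eb1 at 4.78 and 56.0 CPM (11.7-fold). H2-DMa stood at 5.31 and 12.4 CPM (2.35-fold) and Ciita at 0.411 and 1.56 CPM on 24 and 94 UMIs (3.79-fold). With the added 1 CPM the log2 ratio of Ciita was 0.86. Its bounds of 0.20 and 1.57 have the width of the interval of the raw count ratio and are not exact for this ratio.

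Class I genes were also higher, by less than 2-fold. H2-K1 stood at 303 and 534 CPM (log2 0.82), H2-D1 at 650.2 and 982 CPM (0.59) and B2m at 957 and 1299 CPM (0.44). At 2-fold with 1 CPM added, 5 of 6 class II genes and no class I gene were higher after repetitive bleomycin, against 6.1% of all genes, and no member was lower, against 1.64%. Ciita, the sixth, passed 2-fold only without the added 1 CPM. The class I median was 0.59, the class II median 2.89 and the median over all genes 0.10. With clusters in place of gates the class II median was 1.44 or 1.2, depending on how clusters were named. The 1.44 came from naming by highest marker level, which left 4804 and 3487 barcodes as FBs. That naming called clusters with 2526 and 2468 bleomycin barcodes smooth muscle. The 1.2 came from 5449 and 9650 FBs. The experiments share no control library, and the difference between them was not tested.

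Class II UMIs were held by few FB-gated barcodes. After a single PBS dose, 17 barcodes (1.93%) with at least 10 class II UMIs held 90.7% of the class II UMIs of the gate, and after bleomycin 28 barcodes (3.47%) held 73.4%. After repetitive dosing, 24 barcodes (0.457%) held 61.9% with PBS and 286 (3.28%) held 81.3% with bleomycin. The remaining barcodes had class II sums of 68.7 and 112 CPM after the single dose and of 15.8 and 61.6 CPM after repetitive dosing, PBS first. Because 10 UMIs is a different share of a barcode at different depths (medians of 6929.5 and 11685 UMIs in the single-dose remainder), these sums are given as values and not compared between PBS and bleomycin.

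The high barcodes also held RNA of other cell types. After a single PBS dose the pan-leukocyte gene Ptprc stood at 79.6 CPM in them and 0.169 CPM in the rest, and the macrophage gene C1qb at 393 and 3.38 CPM. After single bleomycin the AEC2 gene Sftpc stood at 1220.5 and 66.9 CPM. With repetitive PBS, Sftpc stood at 14544 and 17 CPM, and with repetitive bleomycin the antibody light chain gene Igkc stood at 17019 and 298 CPM and Ptprc at 117 and 3.68 CPM.

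The FB gene Pdgfra was present in both kinds of barcode, at 265 and 521 CPM after single PBS, 292 and 292 CPM after single bleomycin, 401 and 587 CPM after repetitive PBS and 256 and 375 CPM after repetitive bleomycin. Of the high barcodes, 76.5%, 82.1%, 79.2% and 67.8% held a marker UMI of another cell type in these 4 libraries, against 27.1%, 52.3%, 27.1% and 42.8% of the rest. The number of high barcodes without such a UMI was 4, 5, 5 and 92. The high barcodes were also deeper, with median UMIs of 13631 against 6929.5, 15252.5 against 11685, 18872.5 against 10676 and 2950.0 against 2821, and the shares were not matched for depth.

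Over the whole FB gates, marker sums of other cells were also higher after bleomycin for most lists. The 6 plasma cell markers summed to 5.69 and 13.0 CPM after the single dose and to 3.82 and 1040 CPM after repetitive dosing, PBS first. Dendritic cell markers summed to 16.7 and 43.5 CPM and to 13.9 and 32.9 CPM, macrophage and monocyte markers to 12 and 17.5 CPM and to 6.28 and 16.4 CPM, B cell markers to 1.14 and 2.23 CPM and to 1.01 and 5.96 CPM, and T cell markers to 10.6 and 11.8 CPM and to 1.03 and 3.63 CPM. Endothelial markers summed to 15.9 and 18.4 CPM and to 10.1 and 13.1 CPM, epithelial markers to 1.63 and 1.17 CPM and to 0.908 and 1.71 CPM, and neutrophil markers to 7.8 and 3.79 CPM and to 1.78 and 3.87 CPM. Of the 6 markers per list, 3 to 6 were detected after single PBS, where the B cell genes Ms4a1 and Pax5 were among those at 0, and all 6 of each list after repetitive bleomycin. The part of these cells in the class II levels over the whole gates was not tested.

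Among FBs with no UMI of any of these markers, the single-dose class II median changed sign, although Cd74 and H2-Ab1 were still the lower after bleomycin, and the repetitive-dose median was close to that of the whole gate. In the 635 and 377 such barcodes of the single-dose libraries the class II median over all 6 members was 0.097, with Ciita on only 1 and 2 UMIs, and without Ciita the median was that of H2-Aa, 0.05. Cd74 stood there at 63.5 and 35.6 CPM (log2 -0.82), H2-Ab1 at 34.5 and 30.2 CPM (-0.19) and H2-Eb1 at 22.8 and 27.2 CPM (0.25). In the 3811 and 4918 such barcodes of the repetitive libraries the median was 2.85, with Cd74 at 5.30 and 59.6 CPM (3.27), H2-Aa at 2.27 and 22.5 CPM (2.84) and H2-Eb1 at 2.20 and 25.6 CPM (3.06). Ptprc and C1qb were not among the markers used for that choice. The choice was not matched for depth, and a shallow barcode is less likely to hold a marker UMI. Median depth of the whole gates was 6991 and 11790 UMIs after the single dose and 10691 and 2828 UMIs after repetitive dosing. Of the repetitive barcodes with at least 10 class II UMIs, 5 after PBS and 92 after bleomycin held no marker UMI of another cell type.

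**Figure D3:**
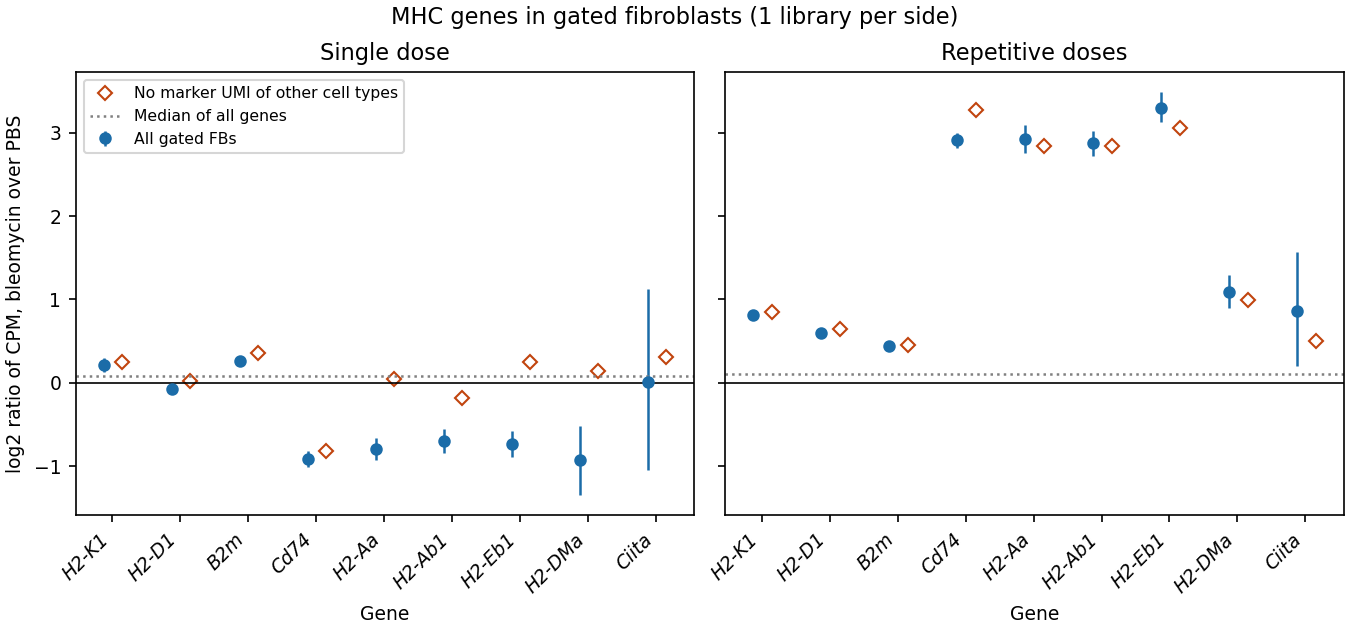
Log2 ratio of bleomycin over PBS for the 9 members in FB-gated barcodes after a single dose (left) and repetitive dosing (right), 1 library per side. Filled points are all gated FBs with 95% counting intervals, open diamonds are FBs with no marker UMI of other cell types, and the dotted line is the median of all genes (0.08 and 0.10). Over all gated FBs, the class II genes except Ciita lie below 0 after the single dose and all 6 lie above 0 after repetitive dosing.

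Free RNA can give a class II UMI in cells that do not express it. With barcodes of at least 1000 UMIs thinned to that number, a UMI of Cd74 was found in 0.788% of FBs after repetitive PBS and 7.46% after repetitive bleomycin (4.63% and 13.5% unthinned). T cells of the same libraries, which in the mouse lack class II, had 1.45% (counting interval 0.0272% to 5.85%) and 2.66% (0.046% to 9.72%). These rest on only 93 and 55 T cells. Their intervals, taken after the expected count was rounded to a whole number, include the FB shares. By level, Cd74 stood at 18.0 CPM in FBs and 16.1 CPM in T cells after PBS (interval 6.49 to 33.3 in T cells), and at 142 CPM in FBs and 19.4 CPM in T cells after bleomycin (7.12 to 42.3), so FBs exceeded the T cell interval only after bleomycin. The FB share and level after bleomycin also include the barcodes with at least 10 class II UMIs described above. Without those barcodes the FB class II sum after bleomycin was 61.6 CPM. That lay within the interval of the T cell class II sum of that library (27.2 to 80.0 CPM). After the single dose, where 20 T cells after PBS and fewer after bleomycin gave no usable share, the FB share was 3.91% with PBS and 5.12% with bleomycin (14.7% and 30.8% unthinned). Median depth was 10691 and 2828 UMIs in FBs and 3259 and 4453 in T cells of the repetitive libraries.

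By FB subclass, the lower single-dose level of Cd74 lay mostly outside the named groups. LipoFB-gated cells, alveolar FBs that carry lipid, held Cd74 at 122 CPM after PBS and 101 CPM after single bleomycin (501 and 141 barcodes, log2 -0.27), while H2-Aa stood at 49.8 and 79.8 CPM (0.67, from 0.33 to 1.01) and the median over the 4 tested class II genes was 0.082. FBs with no subclass (258 and 311 barcodes) held Cd74 at 744 and 288 CPM. They also held the pan-leukocyte gene Ptprc at 8.10 and 7.48 CPM, against 0.88 and 0.62 CPM in LipoFBs. The part of leukocyte RNA in their Cd74 levels was not tested. Adventitial FBs, which surround vessels and airways, held Cd74 at 15.1 and 43.8 CPM on 11 and 60 UMIs (log2 1.47), so the subclasses did not share a direction.

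After repetitive dosing the same groups all stood higher after bleomycin. Cd74 in LipoFBs was 8.21 and 65.9 CPM (3055 and 1321 barcodes, log2 2.86), in adventitial FBs 9.63 and 127 CPM (735 and 2612 barcodes, 3.60) and in FBs with no subclass 42.1 and 216 CPM. MyoFBs are known as contractile, collagen-rich cells of scars, but the 69 MyoFB-gated barcodes after PBS held Col1a1 at 668 CPM, against 693 CPM in all FBs of that library and 3659.7 CPM in the 1649 MyoFB-gated barcodes after bleomycin. Cd74 had 3 UMIs in the former, or 3.69 CPM, and 1095 in the latter, or 89.3 CPM. No H2-Eb1 UMI was found in the MyoFB gate after PBS, where 3 UMIs would be 3.69 CPM (exact upper limit 4.54 CPM). The class II medians were 2.75 in LipoFBs and 2.98 in adventitial FBs. None is given for MyoFBs, whose class II genes had 0 to 7 UMIs each after PBS, with H2-DMa at 8.61 and 9.05 CPM.

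H2-K1 was higher in adventitial FBs than in LipoFBs in all 4 lung libraries. It stood at 249 and 286 CPM in LipoFBs and at 384 and 507 CPM in adventitial FBs after a single dose, and at 252 and 352 CPM and 426 and 739 CPM after repetitive dosing, PBS first. MyoFB-gated barcodes lay at 284 CPM after single bleomycin and at 327 and 499 CPM in the repetitive libraries. Those after repetitive PBS did not have raised Col1a1, as given above. Bleomycin was associated with higher H2-K1 in each subclass where both libraries held at least 20 barcodes.

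Among other antigen presentation genes in FBs, the class I pathway list had medians of 0.23 after a single dose and 0.35 after repetitive dosing, against 0.08 and 0.10 over all genes. Nlrc5, the coactivator of class I genes, was the highest in both (1.01 and 1.11) and the only one of 14 at least 2-fold higher, against 8.47% and 6.1% of all genes, on 4 and 24 UMIs after the single dose and 114 and 324 after repetitive dosing. The lowest were the peptide transporter subunit Tap2 (-0.35) and the trimming enzyme Erap1 (0.08). In the list of other class I genes, H2-Q7 was the highest in both (2.27 and 3.32), with medians of 0.37 and 0.66. The lowest was H2-Ke6 (-0.63 and -0.32), which is a steroid dehydrogenase gene within the MHC and not a class I gene. H2-Q7 shares sequence with its neighbours, so its counts are uncertain.

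The class II pathway list had medians of -0.22 and 0.65. After repetitive dosing 4 of 14 tested genes were at least 2-fold higher, against 6.1% of all genes, with Ctss, the protease that trims the invariant chain, the highest (2.75) and Cd40 the lowest (-0.75). After a single dose the range ran from H2-DMb2 (-1.55) to the costimulatory ligand Cd80 (1.06). In the interferon-gamma axis the medians were 0.33 and 0.32. Cxcl9, a T cell chemokine, was the highest in both, at 0 and 158 UMIs after the single dose and 47 and 932 after repetitive dosing, and the receptor gene Ifngr1 the lowest (-1.02 and -0.61). Ifng itself had 1 UMI in the 4 FB gates together. The type I interferon response had medians of 0.96 and 0.75, from Ifit2 (-0.77 and -0.75) to Ifi44 (2.41 and 1.96). The values of all these lists, class I lists included, are over the whole FB gates, which also held marker UMIs of other cells. The part of those cells in the list values, such as that of Ctss, was not tested.

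Other cells in the sort gave reference levels. In the repetitive libraries, B cells held Cd74 at 9006 and 9336 CPM (44 and 76 barcodes) and H2-Aa at 3054 and 2939 CPM, and cells of the macrophage and monocyte gate held Cd74 at 8403 and 6607 CPM and H2-Aa at 2981 and 2524 CPM (42 and 68 barcodes). Ciita stood at 69.4 and 123 CPM in B cells and at 92.5 and 49.8 CPM in macrophages and monocytes. FBs were far below these gates for each class II gene, also after repetitive bleomycin.

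T cells were the reverse, with class I and almost no class II. H2-Aa had 0 UMIs after PBS, where 3 UMIs would be 6.92 CPM (exact upper limit 8.51 CPM), and stood at 3.24 CPM after bleomycin, and no Ciita UMI was found in either library. H2-K1 in T cells stood at 692 and 1786 CPM, 2.58-fold higher after bleomycin (97 and 61 barcodes), H2-D1 at 844 and 1657 CPM and B2m at 798 and 1576 CPM.

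Endothelial cells had the highest H2-K1 and H2-D1 of the repetitive PBS library. H2-K1 stood at 2094.5 CPM after PBS and 1236 CPM after bleomycin (59 and 26 barcodes, log2 -0.76), H2-D1 at 2996 and 1726 CPM and B2m at 2137 and 1676 CPM. Cd74 stood there at 1751 and 1094 CPM (log2 -0.68) and H2-Aa at 454 and 316 CPM. For class I the direction was thus opposite to that in FBs and T cells of the same libraries. For class II it was opposite to that in FBs, while T cells held almost none. The 27 epithelial barcodes of the repetitive PBS library held Cd74 at 1768 CPM and H2-K1 at 419.6 CPM. These gates are small, and the GFP sort removes most such cells.

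**Figure D4:**
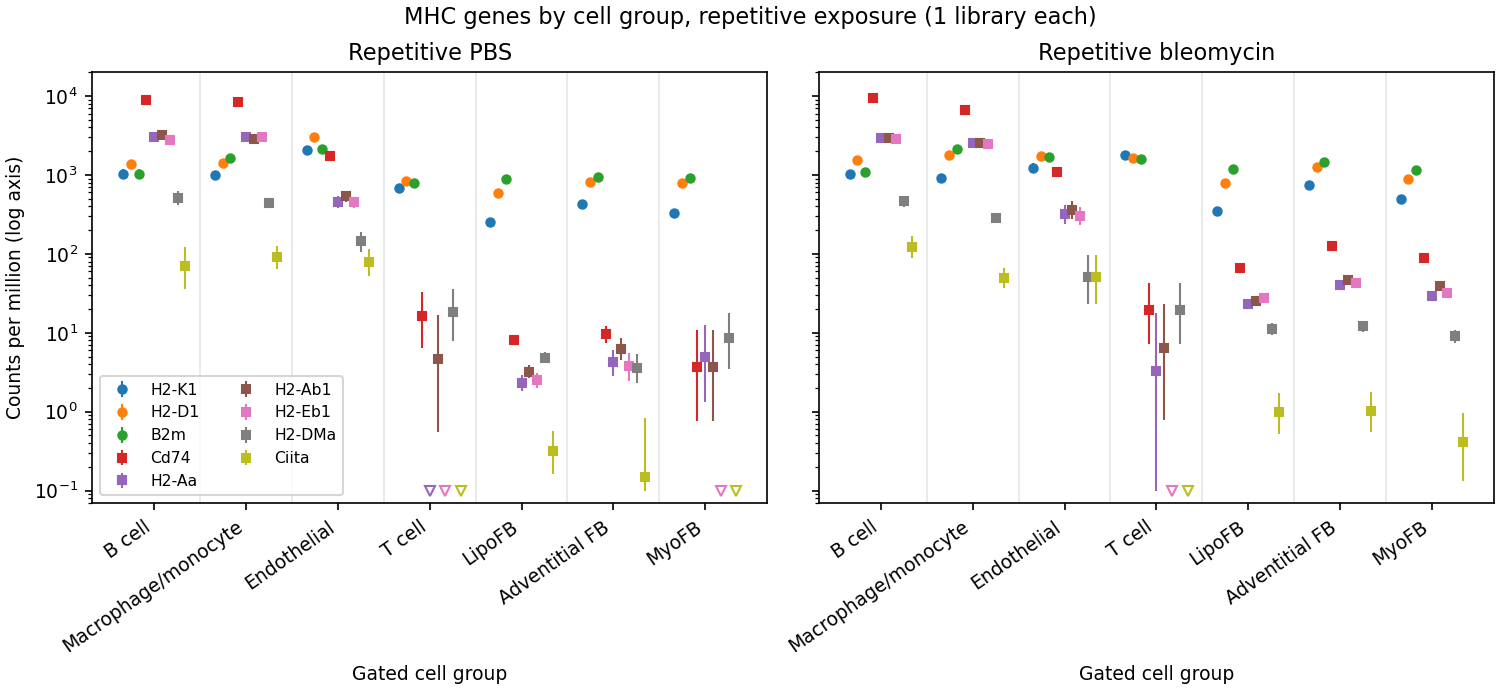
Levels of the 9 members in CPM (log axis) in gated cells of the repetitive PBS and repetitive bleomycin libraries, with exact 95% counting intervals and open triangles for 0 UMIs. B cells and macrophages and monocytes hold Cd74 at 6607 to 9336 CPM, while the FB subclasses lie at 3.69 to 127 CPM.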

How the data were processed

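Cell suspensions were profiled by 10x droplet sequencing. The deposited values are raw UMI counts per gene and barcode that the authors made with Cell Ranger 3.0.1 on mm10 (the submitters' processing notes also name Seurat 3). The study's methods name 1 GENCODE release without naming tables, and the 32285 gene rows of the organoid and repetitive tables differ from the 30830 and 30828 of the single-dose tables. Columns of individual cells were summed per gate and library into CPM, and ratios are log2((CPM + 1)/(CPM + 1)) for genes with at least 20 UMIs over both sides. Barcodes above 3 scaled deviations or 25% mitochondrial UMIs, or above 0.5% haemoglobin UMIs, were left out. Lung gates needed 3 of 6 markers and a lead of 2 over any other class. Mesothelial and smooth muscle gates needed 4 of 6 markers and took precedence. Organoid gates used relative marker level. FBs needed an FB level of at least 2 and an epithelial level under 0.5. Epithelial barcodes needed an epithelial level of at least 0.5 and an FB level under 1. Epithelial and FB subclasses needed a relative level of at least 1 and 1.5 times the next class. Clustering was used as an alternative only (leidenalg 0.10.2). Python 3.11.15, numpy 2.4.6, scipy 1.17.1 and pandas 2.3.3 were used, and the ratio code was tested on simulated data. Cells are not replicates, so no test was run. The members and lists were chosen with earlier results of these data known. Text names all 9 members and the highest and lowest gene of each list, plus genes that state what was detected. Ptprc, C1qb, Sftpc and Igkc in FBs, Ager and Ifi30 were named after their values were seen. Some genes are not reported here.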

Additional observations from a re-analysis of the deposited data

How the results depend on the processing

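No paired analysis was possible because each condition has 1 library, and for the same reason no library could be left out. The class I and class II medians (log2 ratios) were recomputed with stricter gates, Leiden clusters, no cell filter, at least 2000 UMIs, no marker UMI of other cells, centring on all genes, a 50-UMI minimum and a pseudocount of 0.1. In organoid epithelium the markers of other cells were those of immune and endothelial cells only, without FB markers. The cause of each change was not tested. For FBs after a single dose, class I (0.22) turned to -0.099 with clusters named by the highest marker level, and class II (-0.77) turned to 0.79 with those clusters and to 0.097 without marker UMIs of other cells, and was -1.14 with stricter gates and -1.14 with clusters named by most of their gated barcodes, a naming chosen after seeing the data. For FBs after repetitive dosing, class I (0.59) was 0.65 without marker UMIs and 0.49 when centred, and class II (2.89) was 2.43 with stricter gates, 1.44 and 1.2 with the clusterings, and 2.58 without the cell filter. For organoid epithelium, class I (-0.005) was 0.043 without marker UMIs and -0.040 when centred, and class II (0.28) was 0.011 without marker UMIs. For transitional over AEC2 with normal FBs, class I (-0.19) was -0.26 with clusters and -0.37 when centred, and class II (-2.05) was -2.42 with stricter gates, -2.63 with clusters, -2.54 without marker UMIs and -2.23 when centred. With fibrogenic FBs, class I (-0.20) was -0.29, -0.39 without marker UMIs and -0.36 when centred, and class II (-2.42) was -2.66, -3.22, -3.66 and -2.58 in the same order of settings. The direction of the class II difference between transitional cells and AEC2s and of that in FBs after repetitive dosing held in all alternatives run. Ciita in lung FBs (13 to 94 UMIs) and the small lung gates are limited by depth.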

Other observations

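Across 30 profiles (a gate in a library with at least 50 barcodes), genes whose log2 level was most like the class II sum, among 7217 genes outside the members and lists, included Smagp (Pearson r = 0.875), Plbd1 (0.848), Necap2 (0.819) and Aldh3b1 (0.799). Among the members, Cd74 (0.996), H2-Ab1 (0.992), H2-Aa (0.977), H2-Eb1 (0.959), Ciita (0.941) and H2-DMa (0.886) are themselves class II, H2-K1 had 0.385, H2-D1 0.203 and B2m -0.356. The genes most like the class I sum were Crip1 (0.853), Gtpbp2 (0.844), Sptssa (0.821), Smarcd2 (0.816) and Arl6ip5 (0.813). The class I members had 0.878 for B2m, 0.829 for H2-D1 and 0.545 for H2-K1. Profiles share libraries, and levels from all experiments are pooled although depth and, for the single-dose tables, the gene rows differ between them. B2m, for example, stood at 2713 CPM in FBs after single PBS and 957 CPM after repetitive PBS, so these values also hold differences between experiments.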
